A study of Mus musculus with 6 samples.

Results

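Integrins are cell surface receptors built of 1 α and 1 β chain, and laminins are secreted basement membrane proteins built of 1 α, 1 β and 1 γ chain. The protein-coding genes with integrin chain symbols (Itga or Itgb with a number, or Itga with d, e, l, m, v or x) and laminin chain symbols (Lama, Lamb or Lamc with a number) were taken from the deposited table. The symbols gave 37 genes of the 36977 listed, 26 of them integrin chains and 11 laminin chains, and the rule uses symbols and not measured values. They were examined in colonic tissue of wild-type mice (genotype WT) with colitis from dextran sodium sulfate (DSS), which is a sulfated sugar polymer toxic to the gut lining. DSS+DCA comprised 3 libraries, replicates 1, 2 and 4, from mice labelled as given DSS and deoxycholic acid (DCA), a bile acid that gut bacteria make. DSS comprised 3 libraries with the same numbers, from mice labelled DSS alone. The protocol label reads alike for all 6 samples, with 2% DSS for 7 days and then DCA by enema, so the sources used here do not say what DSS mice were given in its place. Strain, age and sex are not given in the labels either.

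In the gut, epithelial cells rest on a basement membrane in which laminins are joined to type IV collagen through nidogen and perlecan. Integrin α6β4 holds these cells to laminin at hemidesmosomes, and a laminin that holds the α3 and β3 chains is its best known ligand there. Integrin α3β1 binds the same laminins outside hemidesmosomes, α1β1 and α2β1 bind collagens, and α5β1 and the αv integrins bind matrix proteins that carry the short peptide motif RGD. On leukocytes, β2 pairs with αL, αM, αX or αD and binds ICAM proteins and complement fragments. The β7 chain pairs with α4 to bind MAdCAM on gut vessels, or with αE to bind E-cadherin on epithelium.

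Values were FPKM, fragments scaled to transcript length and to library size, so levels of different genes can be set side by side. From the spacing of low values each library was estimated to hold 15300000 to 18400000 fragments, and 1 FPKM then stands for about 15.3 to 18.4 fragments per kilobase of transcript. Mitochondrial transcripts took 30.5%, 47.6% and 46.7% of the summed FPKM in DSS+DCA replicates 1, 2 and 4, against 29.4% to 31.4% in the DSS libraries. Other protein-coding genes took 46.0%, 20.9% and 24.2% in DSS+DCA, against 44.8% to 46.0% in DSS. A protein-coding FPKM in DSS+DCA replicates 2 and 4 is thus part of a smaller share. DSS+DCA replicate 2 had 31155 genes above 0, and the other libraries had 24620 to 27190. Among 1129 genes averaging 30 FPKM or more, DSS replicate 4 lay a median of 0.0482 log2 units from the mean of DSS replicates 1 and 2, which lay 0.201 from each other. The corresponding distances were 0.318 for DSS+DCA replicate 4 and 0.737 between DSS+DCA replicates 1 and 2. Whether the DSS libraries came from separate samples was not tested, and the labels tie no library to a separate mouse. The p-values measure the spread between these libraries, which may be technical. The labels name intestinal epithelial cells as the cell type, yet 10 smooth muscle markers summed to 1479, 88.1 and 1050 FPKM in DSS+DCA and to 34.2, 659.9 and 328 FPKM in DSS, and 10 epithelial markers to 5368, 3018 and 3127 FPKM in DSS+DCA and to 7496, 6064 and 6874 FPKM in DSS.

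No integrin or laminin gene passed the test. Of the 37 genes, 27 averaged 0.5 FPKM or more and were tested with limma on log2(FPKM + 1), and 0 of the 27 had a Benjamini-Hochberg adjusted p under 0.05, against 0.561% of the 14611 genes tested. At an unadjusted p under 0.05, 5 of the 27 stood, 2 higher and 3 lower in DSS+DCA, against 16.7% of all tested genes. The same 5 were the tested genes in which no DSS+DCA library overlapped a DSS library, against 23.6% of all tested genes. Itgb2 and Itga7 were the 2 higher ones, where all tested genes gave 5.80%, and Itga3, Itga2 and Itgb4 the 3 lower ones, where all tested genes gave 17.8%. The fitted change was above 0 for 17 of the 27 and below 0 for 10, with a median of 0.10 log2 units beside -0.09 over all tested genes. With array weights, which let the spread set the weight of each library, 13 of the 27 and 6227 of all tested genes had an adjusted p under 0.05. DSS replicate 4 then had a weight of 8.08 and DSS+DCA replicate 1 a weight of 0.152.

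The remaining 10 genes had too low a mean to be tested: Itga4, Itga8, Itga11, Itgad, Itgal, Itgav, Itgb8, Lama1, Lama2 and Lamc3. Over all 6 libraries and all 37 genes the only value listed at 0 was that of Lamc3 in DSS+DCA replicate 2.

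**Figure D1:**
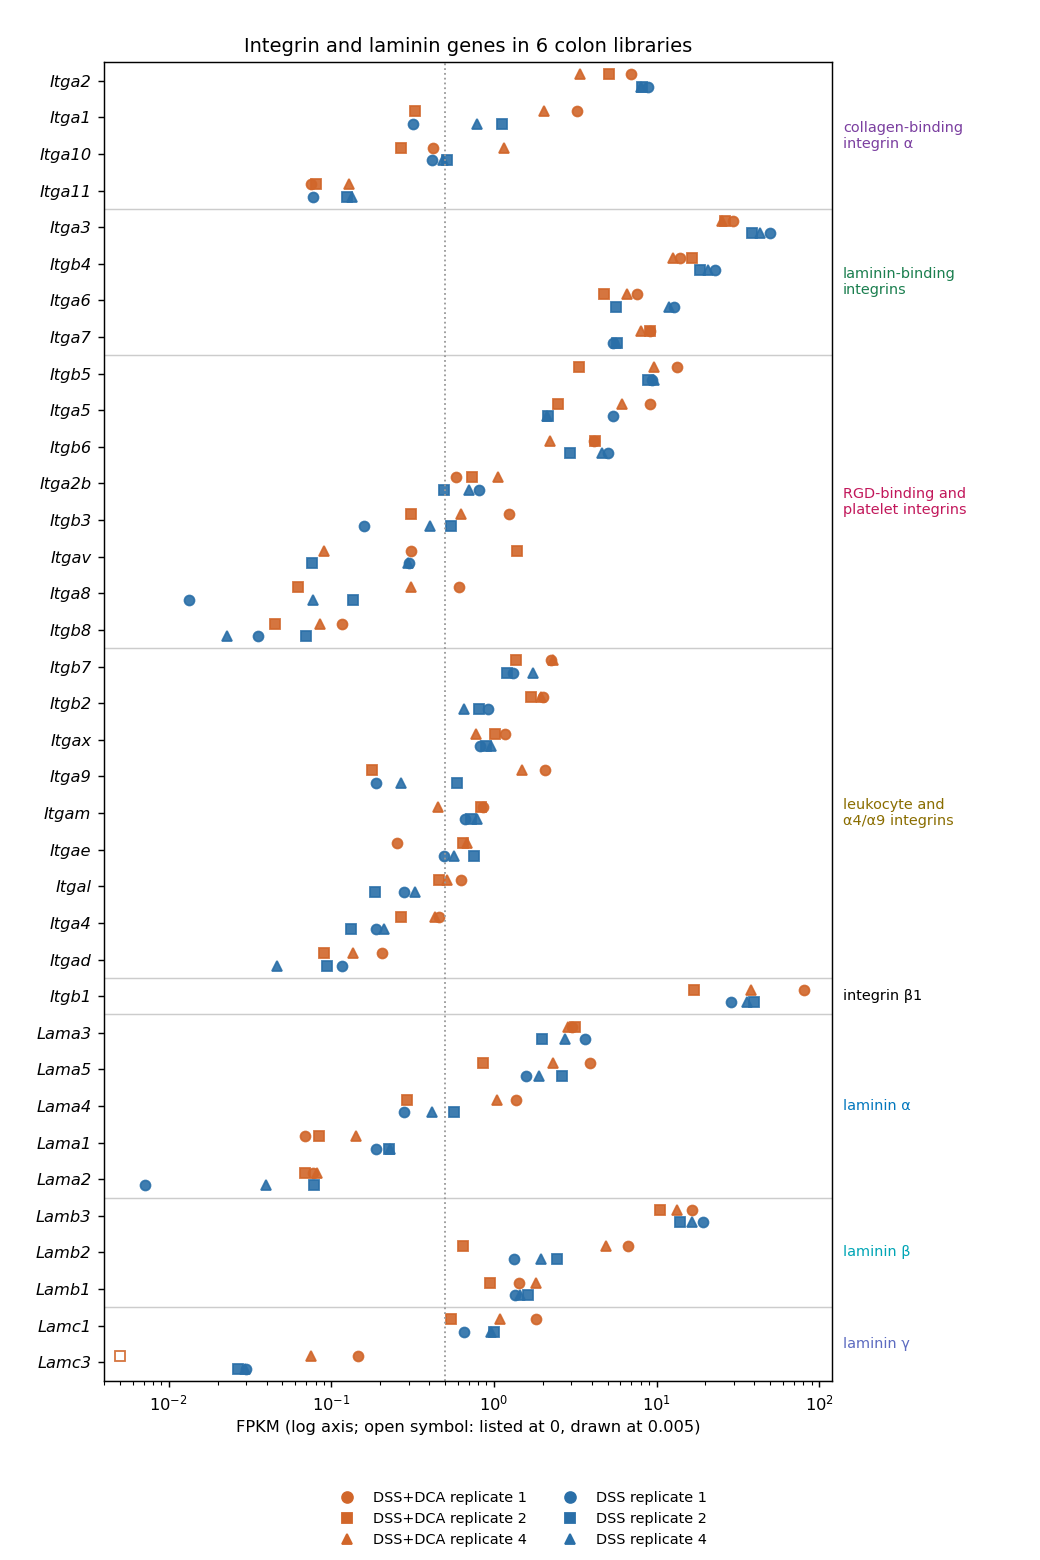
FPKM of 36 integrin and laminin genes on a log axis, with 1 symbol per library, DSS+DCA in orange above DSS in blue in each row, and the dotted line at 0.5 FPKM, the mean over 6 libraries a gene needed to be tested. Itgb1 had the highest single value, 81.3 FPKM in DSS+DCA replicate 1, and Itgb2 and Itga7 (higher in DSS+DCA) and Itga3, Itga2 and Itgb4 (lower) were the tested genes without overlap between the groups.

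**Figure D2:**
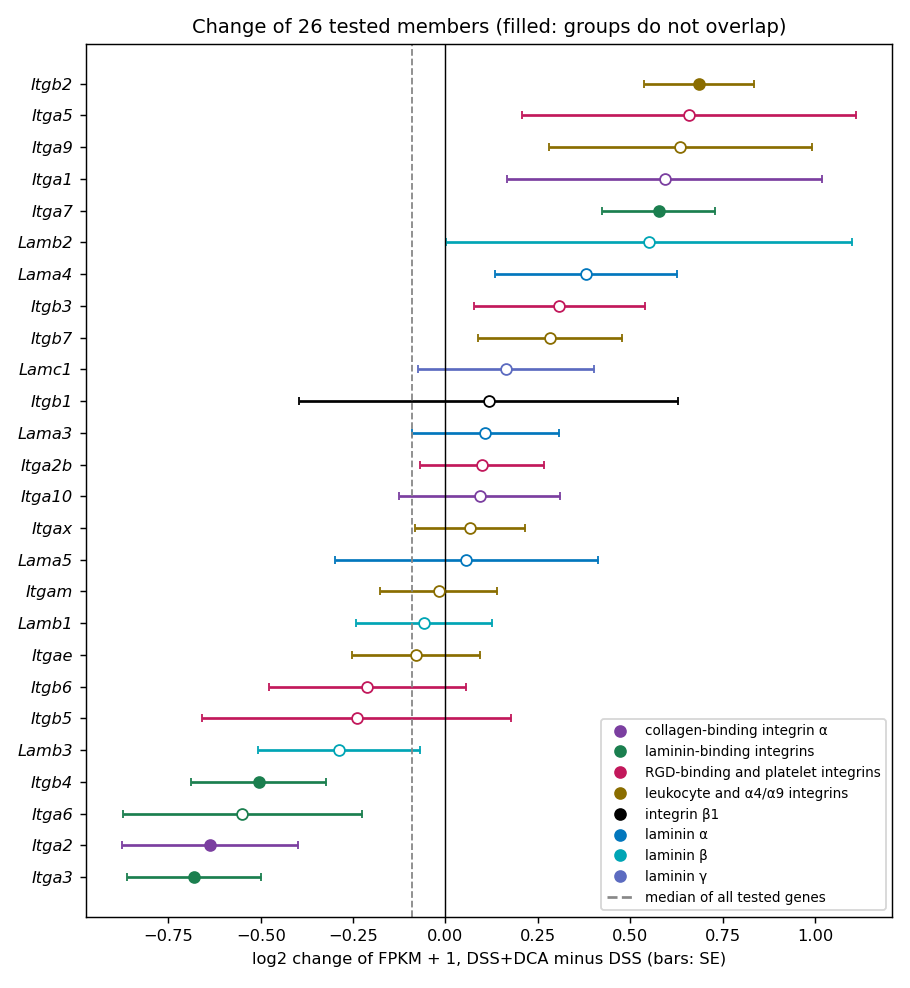
Fitted log2 change of 26 tested genes, DSS+DCA minus DSS on the log2(FPKM + 1) scale, with bars of 1 SE and 3 libraries a group. Changes ran between -0.68 for Itga3 and 0.69 for Itgb2, filled symbols mark groups that did not overlap, and the dashed line at -0.09 is the median of all 14611 tested genes.

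Of the 4 laminin-binding integrin chains, the 3 of epithelium, Itga3, Itga6 and Itgb4, had lower means in DSS+DCA and Itga7 a higher one, and 0 of the 4 were called. Itga3, the α3 chain, had 29.6, 26.4 and 25.1 FPKM in replicates 1, 2 and 4 of DSS+DCA, against 50.1, 38.7 and 43.4 FPKM in replicates 1, 2 and 4 of DSS, the order in which 3 values of a group are given throughout. Every DSS+DCA library lay below every DSS library. The DSS+DCA mean of 27.0 ± 2.29 FPKM was 61.3% of the DSS mean of 44.1 ± 5.75 FPKM (SD, n = 3 each), with a log2 change of -0.68 ± 0.18 (SE) and a limma adjusted p of 0.162. Without DSS+DCA replicate 1 the adjusted p was 0.0453, under which Itga3 was the only integrin or laminin gene called, beside 1246 genes in all.

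Itgb4, the β4 chain that reaches the hemidesmosome plaque, had 13.9, 16.6 and 12.6 FPKM in the DSS+DCA libraries and 22.9, 18.6 and 20.6 FPKM in the DSS libraries. The groups did not overlap, though DSS+DCA replicate 2 and DSS replicate 2 lay close together. The log2 change was -0.51 ± 0.18 with an adjusted p of 0.253. Itga6, the partner chain of β4 and of β1, had 7.63, 4.77 and 6.59 FPKM in DSS+DCA and 12.9, 5.60 and 12.0 FPKM in DSS. Replicate 2 was the lowest of its group in both conditions, and DSS replicate 2 lay within the DSS+DCA range. The log2 change of Itga6 was -0.55 ± 0.32 with an adjusted p of 0.429. The ratio of Itga6 to Itgb4 within a library was 0.551, 0.288 and 0.525 in DSS+DCA and 0.561, 0.300 and 0.581 in DSS, with overlapping groups and the lowest ratio of each group in replicate 2.

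Itga7, the α7 chain, is best known as the laminin receptor of muscle and was the laminin-binding chain with a higher mean in DSS+DCA. It had 9.18, 9.17 and 8.06 FPKM in DSS+DCA and 5.37, 5.68 and 5.64 FPKM in DSS. The spread within a group was small beside the gap between them, with means of 8.80 ± 0.643 and 5.56 ± 0.167 FPKM in DSS+DCA and DSS (SD, n = 3 each). The log2 change was 0.58 ± 0.15 with an adjusted p of 0.160. DSS+DCA replicate 1 with 1479 FPKM of smooth muscle markers and DSS+DCA replicate 2 with 88.1 FPKM of them had nearly the same Itga7 FPKM. Non-mitochondrial protein-coding genes took 46.0% of the summed FPKM in DSS+DCA replicate 1 and 20.9% in replicate 2. Equal FPKM are thus unequal shares of the protein-coding sum. The exons of Itga7 share 9 bases with those of Mettl7b on the opposite strand. Mettl7b stood at 430.1, 154.2 and 386.8 FPKM in DSS+DCA and 343.5, 438.4 and 391.7 FPKM in DSS, and the sources used here do not say whether fragments were counted by strand.

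The collagen-binding chains comprised Itga1, Itga2, Itga10 and Itga11. Itga2, the epithelial and platelet collagen receptor chain, had 6.94, 5.12 and 3.40 FPKM in DSS+DCA and 8.80, 8.11 and 7.99 FPKM in DSS. All DSS+DCA libraries lay below the DSS libraries, with DSS+DCA replicate 4 the lowest. The log2 change was -0.64 ± 0.24 with an adjusted p of 0.264. Itga1, the chain found mostly on smooth muscle, fibroblasts and activated T cells, had 3.23, 0.328 and 2.05 FPKM in DSS+DCA and 0.320, 1.12 and 0.785 FPKM in DSS. Its lowest libraries were DSS+DCA replicate 2 and DSS replicate 1, so the groups overlapped. The fitted change was 0.59 ± 0.43 with an adjusted p of 0.511. Exons of Itga1 share 685 bases with Gm49395 on the same strand, which had 3.67, 1.09 and 3.96 FPKM in DSS+DCA and 2.51, 1.23 and 1.07 FPKM in DSS. Its mean over the 6 libraries, 2.25 FPKM, was above the 1.30 FPKM of Itga1, so the Itga1 values are uncertain by what the counting gave to either gene. Itga10 and Itga11, known from cartilage and from fibroblasts, were at 0.268 to 1.15 and at 0.0754 to 0.135 FPKM over the 6 libraries, with overlapping groups.

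Itga2 and Itga1 are neighbours, read from the same strand of chromosome 13 in the GENCODE M21 annotation of GRCm38. Itga2 occupies chr13:114833081-114932100 and Itga1 chr13:114953096-115101964, both on the minus strand, with 20995 bases between them. The neighbours ordered the libraries differently, as given above. Itga3 lies at chr11:95044474-95076801 on the minus strand. The 250 bases before the RefSeq start (build GRCm38.p6) of each are printed below to set the promoters of the neighbouring pair beside that of the most abundant chain without overlap. GGGCGG, the core of an Sp1 box, is in capitals and was searched on both strands. The windows are chr13:114932101-114932350 for Itga2, chr13:115101965-115102214 for Itga1 and chr11:95076715-95076964 for Itga3, each printed 5′ to 3′ on the minus strand, and that of Itga3 reaches 87 bases into the GENCODE gene because the 2 annotations place the start differently.
Itga2: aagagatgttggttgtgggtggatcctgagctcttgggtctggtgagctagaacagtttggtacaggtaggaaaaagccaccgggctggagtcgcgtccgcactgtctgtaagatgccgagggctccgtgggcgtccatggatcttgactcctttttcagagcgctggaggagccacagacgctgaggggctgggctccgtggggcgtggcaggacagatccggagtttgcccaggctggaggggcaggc
Itga1: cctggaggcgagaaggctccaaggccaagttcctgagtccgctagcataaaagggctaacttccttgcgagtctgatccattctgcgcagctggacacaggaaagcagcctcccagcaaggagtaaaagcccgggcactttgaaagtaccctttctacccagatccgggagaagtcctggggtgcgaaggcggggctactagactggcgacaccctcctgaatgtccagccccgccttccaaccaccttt
Itga3: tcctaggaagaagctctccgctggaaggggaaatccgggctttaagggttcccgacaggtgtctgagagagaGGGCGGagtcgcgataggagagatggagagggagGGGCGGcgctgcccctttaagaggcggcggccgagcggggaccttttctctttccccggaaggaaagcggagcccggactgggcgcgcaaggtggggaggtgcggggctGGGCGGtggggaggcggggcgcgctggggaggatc
Guanine and cytosine made up 60.8% of the Itga2 window, 57.6% of the Itga1 window and 67.6% of the Itga3 window, against a median of 52.4% over all RefSeq promoters. The Itga3 window held GGGCGG 3 times, and those of Itga1 and Itga2 held it 0 times. RefSeq promoters were matched for 23 of the 37 genes, and 8 of the 23 held GGGCGG (34.8%), against 32.7% of 32851 promoters. The 23 are 1 promoter per gene, while the 32851 were not reduced to 1 per gene, so the shares are not in like units. Not every window lies at the GENCODE gene start. The RefSeq starts of Itga9, Lamb3, Lama2 and Itgb8 lay 105002, 94295, 2816 and 526 bases from it, inside the gene. TGANTCA, the AP-1 site, was in 1 of the 23 (4.35%), that of Itgax, against 6.75% of all. TATAAA was in 0 of the 23, against 12.4%, and the CArG box of smooth muscle genes in 1, that of Lama2, against 1.47%. These are letter matches only.

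The epithelial markers were lower in DSS+DCA along with Itga3, Itgb4, Itga6 and Itga2. All 10 had a fitted change below 0, with a median of -0.84 log2 units, where 8834 of the 14611 tested genes had one below 0. Of the 10 markers, 6 were lower without overlap, against 17.8% of all tested genes, and 0 were called. Their sums, given above, were 3018 to 5368 FPKM in DSS+DCA and 6064 to 7496 FPKM in DSS, and no epithelial marker was listed at 0. In bulk tissue, fewer cells of a type and less RNA per cell cannot be told apart. Set against the mean log2 level of the 10 markers in the same library, Itga3, Itgb4 and Itga2 no longer separated the groups, and Itga6 overlapped as before. On this measure 0.835% of all tested genes were lower without overlap and 60.3% higher. Before this step 17.8% of all tested genes were lower without overlap, so most such genes lost that separation, as did Itga3, Itgb4 and Itga2. The part of epithelial content in the values of Itga3, Itgb4, Itga6 and Itga2 was not tested. The difference of Itga3 from the marker mean was -3.51, -2.78 and -2.93 log2 units in DSS+DCA and -3.14, -3.28 and -3.27 in DSS. DSS+DCA minus DSS was 0.15 for Itga3, 0.33 for Itgb4, 0.28 for Itga6 and 0.20 for Itga2, with overlap in all 4. Scaling each library to 1 sum of non-mitochondrial protein-coding FPKM brought the 4 log2 changes to -0.24 for Itga3, -0.08 for Itgb4, -0.16 for Itga6 and -0.25 for Itga2. The median of all tested genes then moved to 0.23. Under that scaling 0 of the 27 tested integrin and laminin genes were lower without overlap, against 5.39% of all tested genes.

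The α3 and β3 chains of the epithelial laminin did not separate the groups. Lamb3, the β3 chain and the most abundant laminin transcript of those reported here, had 16.4, 10.6 and 13.4 FPKM in DSS+DCA and 19.3, 13.9 and 16.5 FPKM in DSS. In both groups replicate 1 was the highest and replicate 2 the lowest. The log2 change was -0.29 ± 0.22 with an adjusted p of 0.533, and it was 0.13 after the protein-coding scaling. Lama3, the α3 chain, had 3.01, 3.14 and 2.86 FPKM in DSS+DCA and 3.63, 1.98 and 2.72 FPKM in DSS. The DSS+DCA values lay inside the DSS range, with a log2 change of 0.11 ± 0.20 and an adjusted p of 0.815.

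Relative to the epithelial markers both chains stood higher in DSS+DCA, as did Itgb6, the β6 chain of an epithelial integrin that activates TGF-β. Differences from the marker mean were -6.43, -5.51 and -5.69 log2 units in DSS+DCA and -6.60, -7.01 and -6.85 in DSS for Lama3. For Lamb3 they were -4.32, -4.03 and -3.78 in DSS+DCA and -4.47, -4.68 and -4.61 in DSS. DSS+DCA minus DSS was 0.94 for Lama3, 0.55 for Lamb3 and 0.62 for Itgb6, without overlap. Most genes did the same on this measure: 19 of the 27 tested integrin and laminin genes and 60.3% of all tested genes were higher without overlap, and 0 of the 27 and 0.835% of all were lower. The ratio of the 2 chains overlapped between the groups. Lama3 over Lamb3 was 0.184, 0.297 and 0.213 in DSS+DCA and 0.188, 0.142 and 0.165 in DSS.

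Of the other laminin chains, Lama5, Lama4, Lamb2, Lamb1 and Lamc1 overlapped between the groups. Lama5 is the α chain of the mature basement membrane under intestinal epithelium, and Lama4 that of vessels and muscle. Lama5 had 3.92, 0.859 and 2.32 FPKM in DSS+DCA and 1.57, 2.62 and 1.90 FPKM in DSS. Lama4 had 1.37, 0.293 and 1.05 FPKM in DSS+DCA and 0.281, 0.571 and 0.417 FPKM in DSS. Both were highest in DSS+DCA replicate 1, and in DSS both were highest in replicate 2 and lowest in replicate 1. The log2 changes were 0.06 ± 0.35 for Lama5 (adjusted p = 0.950) and 0.38 ± 0.25 for Lama4 (adjusted p = 0.467). Their ratio did separate the groups. Lama5 over Lama4 was 2.85, 2.93 and 2.21 in DSS+DCA and 5.60, 4.58 and 4.55 in DSS, lower in every DSS+DCA library, and a ratio within a library does not depend on the scaling between libraries. It was the 1 ratio without overlap among the 6 given, was not tested, and rests for Lama4 on values under 0.6 FPKM in 4 of the 6 libraries.

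Lamb2, the β2 chain of vessels, muscle and synapses, had 6.71, 0.649 and 4.86 FPKM in DSS+DCA and 1.33, 2.45 and 1.94 FPKM in DSS. DSS+DCA replicates 1 and 4 were the highest and DSS+DCA replicate 2 the lowest of all 6, so that the log2 change of 0.55 had an SE of 0.55 (adjusted p = 0.640). Lamb1, the widespread β1 chain, had 1.43, 0.944 and 1.82 FPKM in DSS+DCA and 1.35, 1.62 and 1.44 FPKM in DSS, with an adjusted p of 0.899. Lamc1, the γ1 chain shared by most laminins, had 1.81, 0.544 and 1.09 FPKM in DSS+DCA and 0.654, 0.996 and 0.954 FPKM in DSS, with an adjusted p of 0.763. In Lamb1 and Lamc1, as in Lamb2, DSS+DCA replicate 2 was the lowest library. The ratio of Lamb3 to Lamb1 was 7.37 to 11.5 in DSS+DCA and 8.62 to 14.3 in DSS, with overlap.

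Lama1, the embryonic α chain, was too low to be tested and was lower in DSS+DCA without overlap. It had 0.0693, 0.0845 and 0.141 FPKM in DSS+DCA and 0.187, 0.225 and 0.231 FPKM in DSS, which over its longest transcript stands for an estimated 10.2 to 23.5 fragments in DSS+DCA and 29.3 to 39.5 in DSS. Lama2, the muscle α chain, was at 0.0694 to 0.0818 FPKM in DSS+DCA and 0.00712 to 0.0781 FPKM in DSS. Lamc3 was at 0 to 0.145 FPKM in DSS+DCA and 0.0268 to 0.0300 FPKM in DSS, at an estimated 2.89 to 2.90 fragments in the DSS libraries.

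Itgb1, the β chain shared by the collagen, laminin and fibronectin receptors, was the most abundant integrin transcript by its mean in DSS+DCA, where it averaged 45.5 ± 32.8 FPKM, while in DSS its 35.0 ± 5.61 FPKM came after Itga3 (SD, n = 3 each). It had 81.3, 16.9 and 38.3 FPKM in DSS+DCA and 28.9, 40.0 and 36.1 FPKM in DSS. DSS+DCA replicates 1 and 2 were the highest and the lowest of the 6 libraries. The log2 change was 0.12 ± 0.51 with an adjusted p of 0.930, and without DSS+DCA replicate 1 it was -0.43.

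Among the RGD-binding and platelet chains none of the 8 separated the groups. Itga5, the fibronectin receptor chain, had 9.08, 2.47 and 6.10 FPKM in DSS+DCA and 5.40, 2.16 and 2.12 FPKM in DSS. DSS+DCA replicate 2 lay within the DSS range and the other DSS+DCA libraries above it, with a log2 change of 0.66 ± 0.45 and an adjusted p of 0.493. Itgb3, the β chain of platelets, osteoclasts and growing vessels, had 1.24, 0.310 and 0.626 FPKM in DSS+DCA and 0.159, 0.548 and 0.403 FPKM in DSS (adjusted p = 0.529). Itgb6 had 4.12, 4.21 and 2.20 FPKM in DSS+DCA and 5.00, 2.92 and 4.64 FPKM in DSS (adjusted p = 0.721). DSS+DCA replicate 1 was highest of its group for Itga5 and Itgb3 but not for Itgb6. Itgb5, a partner of αv, spanned 3.34 to 13.4 FPKM in DSS+DCA and 8.90 to 9.67 FPKM in DSS. Itga2b, the platelet chain, spanned 0.581 to 1.06 FPKM in DSS+DCA and 0.495 to 0.812 FPKM in DSS. Both overlapped between the groups. The αv chain itself, Itgav, was at 0.308, 1.38 and 0.0902 FPKM in DSS+DCA and 0.301, 0.0760 and 0.295 FPKM in DSS, with DSS+DCA replicate 2 the highest, and was too low to be tested. Itga8, the smooth muscle and mesenchymal chain, was at 0.0626 to 0.606 FPKM in DSS+DCA and 0.0132 to 0.136 FPKM in DSS. Itgb8, which like β6 takes part in TGF-β activation, was at 0.0448 to 0.116 FPKM in DSS+DCA and 0.0229 to 0.0701 FPKM in DSS.

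The leukocyte β2 chain had the smallest p of all 27 tested genes. Itgb2 had 2.00, 1.69 and 1.95 FPKM in DSS+DCA and 0.916, 0.805 and 0.654 FPKM in DSS. Every DSS+DCA library was above every DSS library, and the spread within each group was small. The DSS+DCA mean of 1.88 ± 0.167 FPKM was 2.37 times the DSS mean of 0.792 ± 0.132 FPKM (SD, n = 3 each), the log2 change was 0.69 ± 0.15 and the limma adjusted p was 0.113. Itgb2 was also the 1 gene of the 37 marked significant in the authors' deposited table, with a fold of 2.37 and a q of 0.00650 there. So marked were 1174 of the 36977 genes (3.17%) in the authors' deposited table. Over the longest transcript the values stand for an estimated 76.8 to 101.3 fragments in DSS+DCA and 32.2 to 44.7 in DSS.

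The α partners of β2 gave a mixed picture. Itgal, the αL chain of T cells and other lymphocytes, was too low to be tested and had 0.627, 0.462 and 0.511 FPKM in DSS+DCA and 0.278, 0.187 and 0.329 FPKM in DSS. The groups did not overlap, and the ratio of Itgal to Itgb2 was 0.262 to 0.314 in DSS+DCA and 0.232 to 0.503 in DSS, with overlap. Itgam, the αM chain of neutrophils and macrophages, had 0.853, 0.827 and 0.452 FPKM in DSS+DCA and 0.660, 0.723 and 0.789 FPKM in DSS (adjusted p = 0.963). Itgax, the αX chain of dendritic cells and macrophages, had 1.16, 1.01 and 0.774 FPKM in DSS+DCA and 0.818, 0.894 and 0.957 FPKM in DSS (adjusted p = 0.851). For both, the DSS+DCA libraries lay on either side of the DSS libraries. Itgad, the αD chain, was at 0.0899 to 0.205 FPKM in DSS+DCA and 0.0463 to 0.116 FPKM in DSS. Itgam shares 3450 exonic bases with Gm49368 on the same strand, a gene listed at a mean of 0.155 FPKM.

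The β7 chain and its partners were low. Itgb7 had 2.24, 1.37 and 2.31 FPKM in DSS+DCA and 1.31, 1.21 and 1.75 FPKM in DSS, with a log2 change of 0.28 ± 0.20 and an adjusted p of 0.494. DSS+DCA replicate 2 lay within the DSS range and the other DSS+DCA libraries above it. Itga4, too low to be tested, had 0.460, 0.267 and 0.436 FPKM in DSS+DCA and 0.188, 0.132 and 0.210 FPKM in DSS, higher in DSS+DCA without overlap. Itgae, the αE chain of intraepithelial lymphocytes, had 0.255, 0.649 and 0.681 FPKM in DSS+DCA and 0.494, 0.753 and 0.566 FPKM in DSS (adjusted p = 0.845). The ratio of Itgae to Itgb7 was 0.114 to 0.474 in DSS+DCA and 0.323 to 0.621 in DSS, with overlap. Itga9, which pairs with β1 on smooth muscle, neutrophils and lymphatic vessels, had 2.06, 0.178 and 1.49 FPKM in DSS+DCA and 0.189, 0.590 and 0.268 FPKM in DSS. DSS+DCA replicate 2 was the lowest of the 6 libraries for Itga9, and the log2 change was 0.64 ± 0.36 with an adjusted p of 0.406.

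Over all 37 genes, tested or not, 8 did not overlap between the groups, against 16.0% of all 36977 listed genes. Itga4, Itga7, Itgal and Itgb2 were the 4 higher in DSS+DCA, where all listed genes gave 7.65%. Itga2, Itga3, Itgb4 and Lama1 were the 4 lower, where all listed genes gave 8.32%.

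Leukocyte markers moved with Itgb2 in part. The 8 T and natural killer cell markers summed to 20.0, 12.9 and 15.0 FPKM in DSS+DCA and 10.4, 11.0 and 11.5 FPKM in DSS, without overlap. All 7 tested ones had a fitted change above 0, where 5777 of the 14611 tested genes had one, and 0 were called. The 8 myeloid markers summed to 59.1, 53.8 and 55.8 FPKM in DSS+DCA and 56.2, 49.0 and 53.1 FPKM in DSS, with overlap, and 3 of the 6 tested ones had a fitted change above 0. Neither list had a marker at 0. The 6 B and plasma cell markers summed to 36.7, 5.76 and 41.7 FPKM in DSS+DCA and 22.6, 6.13 and 28.1 FPKM in DSS, with overlap. Of these, Mzb1 was listed at 0 in DSS+DCA replicate 2. The mean log2 level of the T and natural killer markers was then subtracted in each library. Itgb2 was still higher in DSS+DCA without overlap, by 0.40, as were 1.60% of all tested genes. Against the myeloid markers it was higher without overlap by 0.63, as were 3.66%. Against the T and natural killer markers Itgae, Itgam and Itgax were lower without overlap, by -0.36, -0.30 and -0.22, and Itgb7 overlapped. The share of all tested genes lower on that measure was not counted. Against the myeloid markers Itgb7, Itgam and Itgax overlapped. The part of leukocytes in these results was not tested.

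**Figure D3:**
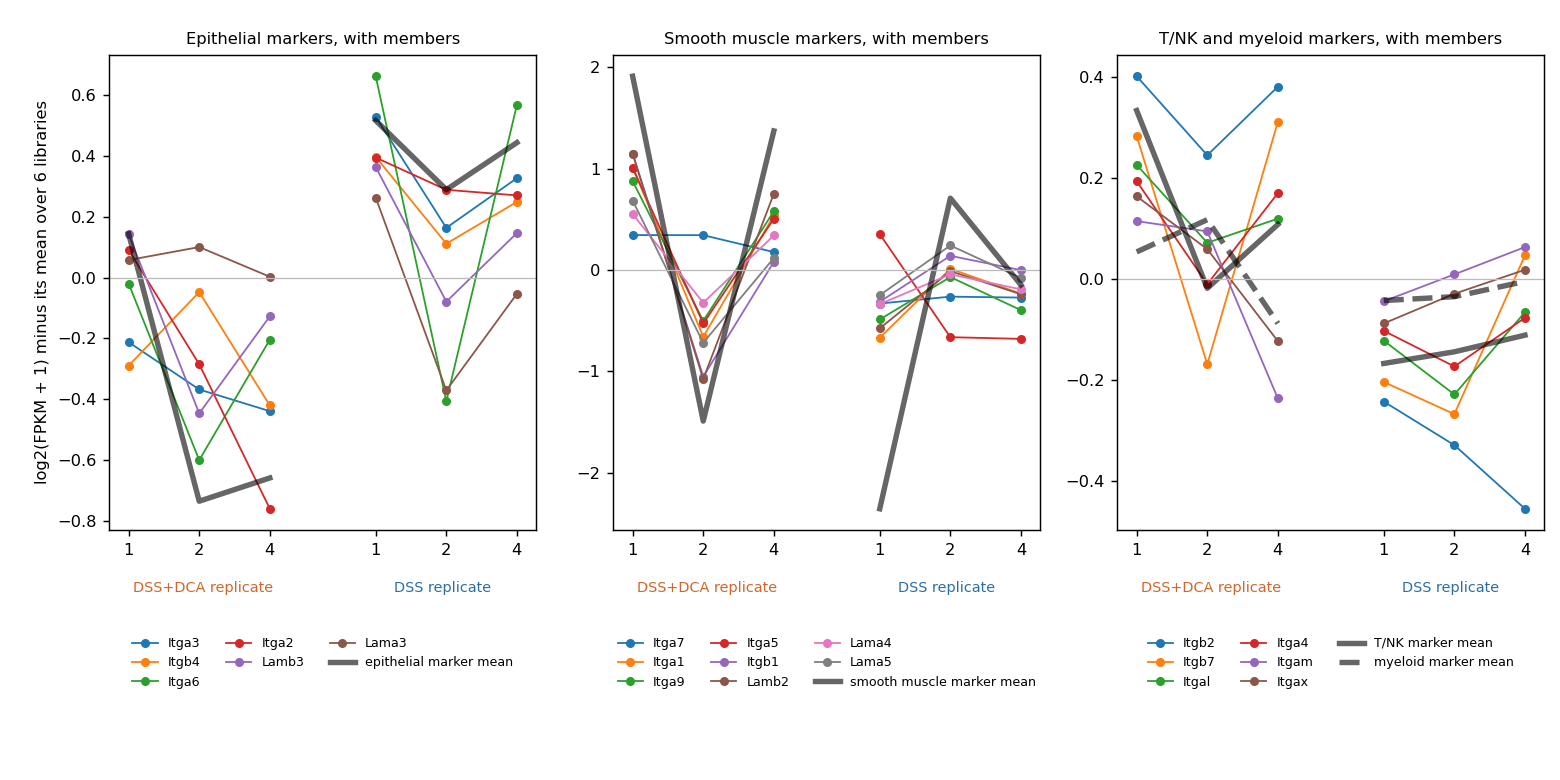
Log2(FPKM + 1) in each library minus the mean over the 6 libraries, for selected integrin and laminin genes (thin lines) and the mean of marker lists (thick grey lines), with DSS+DCA replicates left of DSS replicates and a separate axis range in each panel. In the first panel Itga3, Itgb4 and Itga2 are lower in every DSS+DCA library with the epithelial markers, in the middle panel the smooth muscle markers and Itga1, Itga9, Itgb1 and Lamb2 dip in DSS+DCA replicate 2 while Itga7 does not, and in the last panel Itgb2 is higher in every DSS+DCA library.

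Much of the variation in these genes lay within the groups. In DSS+DCA, 22 of the 27 tested genes (81.5%) were higher in replicate 1 than in replicate 2, against 77.2% of all tested genes. Lamb2, Itgb1, Itgb5, Itga1 and Itga5 had the largest gaps, at 2.22, 2.20, 1.73, 1.67 and 1.54 log2 units. In DSS, 14 of the 27 were higher in replicate 2 than in replicate 1, with Itga1 at 0.68 and Lamb2 at 0.56 above and Itga6 at -1.07 and Itga5 at -1.02 below. The 9 tested smooth muscle markers had medians of 3.70 and 3.84 log2 units for these same differences, and the 10 epithelial markers 0.96 and -0.30. The integrin and laminin medians were 0.45 and 0.05, close to the 0.37 and 0.07 of all tested genes. Across the 27 genes the 2 differences had a Pearson r of 0.39 and a Spearman rho of 0.47, across genes that share the same 4 libraries, beside a Pearson r of 0.19 over all tested genes. Other marker lists ordered the libraries of each group as the muscle markers did. Neuron and glia markers had mean log2 levels of 3.16, 0.873 and 2.78 in DSS+DCA and 0.305, 1.61 and 1.11 in DSS. Fibroblast markers had 2.56, 1.57 and 2.40 in DSS+DCA and 1.58, 2.38 and 2.01 in DSS. The part of muscle content, or of these other cells, in the values of Itga1, Itga7, Itga9, Itgb1, Lama4, Lama5 and Lamb2 was not tested. All 9 tested smooth muscle markers had a fitted change above 0 in DSS+DCA, with a median of 1.37, overlapping groups and 0 called, and none was listed at 0.

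**Figure D4:**
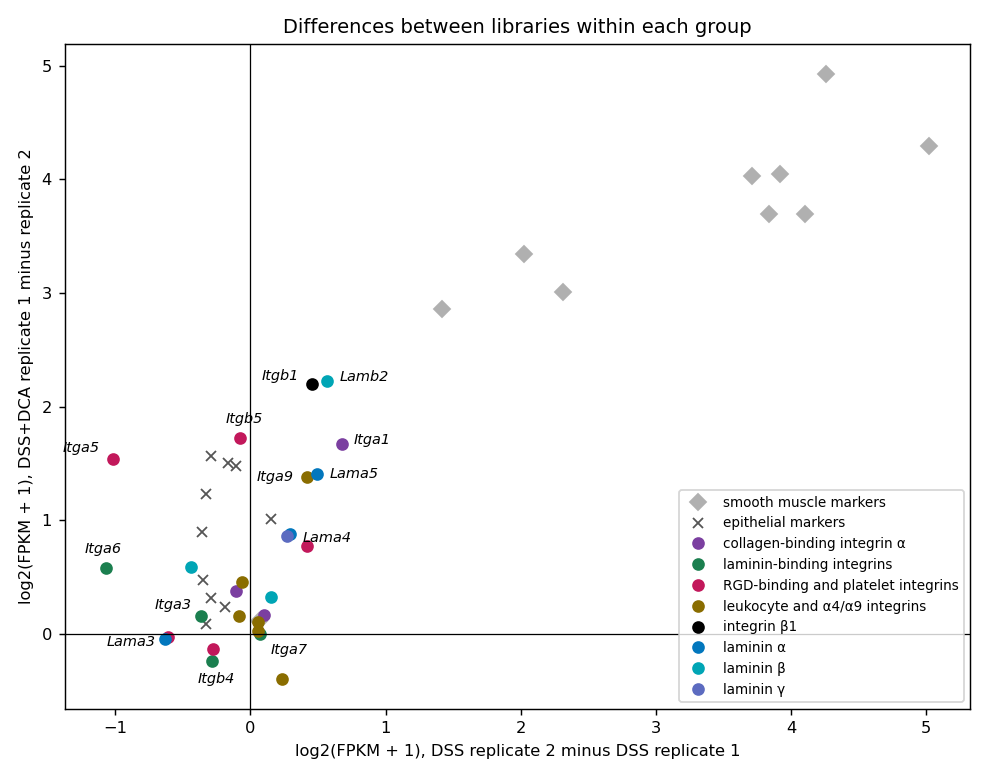
Differences between libraries within the groups on the log2(FPKM + 1) scale, with DSS replicate 2 minus replicate 1 across and DSS+DCA replicate 1 minus replicate 2 up, for 26 tested integrin and laminin genes (coloured circles), 9 smooth muscle markers (diamonds) and 10 epithelial markers (crosses). The muscle markers lie far to the upper right, Lamb2, Itgb1, Itga1, Lama5 and Itga9 lie part of the way in that direction, and Itga7 lies near 0 on both axes.

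Other genes of cell adhesion to matrix were read from lists of 63 listed genes, 51 of them tested, and 0 of the 51 were called. At the hemidesmosome, Plec, the plectin that links β4 to keratin filaments, had 18.8, 17.9 and 19.5 FPKM in DSS+DCA and 34.8, 26.8 and 30.0 FPKM in DSS. Like Itgb4 it was lower in every DSS+DCA library, with a log2 change of -0.67 ± 0.17 and an adjusted p of 0.157. It was 1 of 3 tested genes of that list, and Dst, which encodes the plaque protein dystonin, overlapped, at 1.67 to 2.89 FPKM in DSS+DCA and 1.54 to 3.46 FPKM in DSS. Of 12 tested basement membrane genes, 9 had a fitted change above 0, with a median of 0.33. Col4a1, a type IV collagen chain, had 11.2, 2.68 and 3.16 FPKM in DSS+DCA and 0.921, 1.46 and 1.19 FPKM in DSS. It was the 1 of the 12 without overlap, with DSS+DCA replicate 1 far above the rest, a log2 change of 1.39 ± 0.45 and an adjusted p of 0.208. Nid2, a nidogen, spanned 0.621 to 1.18 FPKM in DSS+DCA and 0.530 to 0.722 FPKM in DSS, with overlap.

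Of 10 tested integrin ligands, 8 had a fitted change above 0, with a median of 0.47. Spp1, the RGD-bearing osteopontin, had 0.117, 0.193 and 0.515 FPKM in DSS+DCA and 0.673, 0.963 and 0.810 FPKM in DSS, lower in every DSS+DCA library (adjusted p = 0.217). Jam3, a junctional ligand of αM, had 4.47, 0.585 and 2.55 FPKM in DSS+DCA and 0.185, 0.748 and 0.673 FPKM in DSS, with overlap (adjusted p = 0.296). Of 26 tested adaptors that couple integrins to actin and signalling, 16 had a fitted change above 0, and 8 did not overlap, 3 higher and 5 lower, where all tested genes gave 23.6%, 5.80% and 17.8%. Fermt1, the epithelial kindlin that activates β1 integrins, had 6.03, 5.01 and 6.11 FPKM in DSS+DCA and 10.1, 7.84 and 8.56 FPKM in DSS (adjusted p = 0.207). Bcar1, the Src substrate p130Cas, had 15.6, 12.8 and 12.8 FPKM in DSS+DCA and 20.0, 18.6 and 18.8 FPKM in DSS (adjusted p = 0.257). Both were lower in DSS+DCA without overlap, as were 17.8% of all tested genes.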

How the data were processed

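RNA-seq was deposited for 6 libraries of mouse colonic tissue. Per the labels' protocols, poly(A) RNA was selected, dUTP marked the second strand, and sequencing was paired-end. Tools named in the submitters' processing notes, with no role stated, are DESeq2, edgeR, HISAT2 2.2.1, StringTie 2.1.6 and cutadapt 1.9. The sources used here give neither the build nor any use of strand in counting.

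Per the file headers, the deposited values are FPKM per gene and library, and the authors also deposited the fold (a ratio of DSS+DCA over DSS), its log2, and a p-value and q-value per gene. Every gene marked significant by the authors had a q under 0.05 and an absolute log2 fold of at least 1. Those columns were used only to describe the authors' calls. Whole reads were not recovered: of the low values, 29.1% to 35.6% came within 0.05 of a whole fragment, and chance gives 10%.

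Values were taken as log2(FPKM + 1), which understates changes of low genes. Genes averaging 0.5 FPKM or more, 14611 in all, entered limma 3.58.1 under R 4.3.3 (lmFit, eBayes with trend, two-sided, no covariates), and p-values were adjusted over all of them by the Benjamini-Hochberg method. Called means an adjusted p under 0.05. Errors of means are SD and errors of log2 changes SE. An exact permutation test of 3 libraries against 3 cannot give a two-sided p below 0.1. All 37 gene IDs were found in GENCODE M21, from which coordinates, overlaps and transcript lengths came, and promoters came from RefSeq. The fragment estimates use the longest transcript of a gene and cover no error but counting. The script was tested on simulated data.

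The integrin and laminin family and the gene lists were chosen for study with earlier results of these data known, although membership of the family goes by symbol alone. Named were, in each role list, the 3 genes of smallest unadjusted p, plus Itga6, Itgb4, Itgb1, Itgae, Itgb7, Itgb2, Lama3, Lama5, Lamb3, Lamb1 and Lamc1. Values of 1 gene that the rule takes are not reported here, while the counts of 37 and 27 genes include it. Of each further list the 2 of smallest p were named. Alternatives were another pseudocount (0.1), other filters, TMM-style, quantile and protein-coding scaling, a replicate block, array weights, an adjusted p under 0.1, and leaving out libraries. Software comprised the R package data.table (1.17.8) and, under Python 3.11.15, pandas 2.3.3, numpy 2.4.6 and matplotlib 3.10.9.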

Additional observations from a re-analysis of the deposited data

How the results depend on the processing

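Of 16 alternatives, 4 leave every log2 change as it is. Under the other 12, which gave 312 log2 changes of 26 tested genes, 31 had the opposite sign to the reported value, in 13 genes, and 13 others had none: Itga1, Itga2, Itga3, Itga5, Itga6, Itga7, Itga9, Itgb2, Itgb3, Itgb4, Itgb7, Lama4 and Lamb2. The count of called genes among all genes, 82 as reported, was 143 with TMM-style scaling, 2 without a filter, 6227 with array weights, 230 at an adjusted p under 0.1 and 220 without DSS+DCA replicates 2 and 4. Leaving out 1 library gave 0 to 1246 called genes in all and 0 to 1 among the 27, and 6 to 14 of the 27 without overlap, against 27.9% to 46.3% of all tested genes, and 38.3% where the 27 gave 14. At 0 called genes, without DSS replicate 1 or 4, limma gave 1503 and 1412 genes at an unadjusted p under 0.05. Array weights called 13 of the 27. The count without overlap, 5 as reported, was 3 with quantile normalization (23.8% of all), 8 of 37 without a filter (16.0% of all) and 20 without DSS+DCA replicates 2 and 4, where all tested genes gave 73.6%. With protein-coding scaling 4 of the 27 did not overlap, 4 higher and 0 lower, against 29.5% and 5.39% of all tested genes. Itga3, Itga2 and Itgb4 thus no longer separated the groups there. The median change of all tested genes was -0.09 as reported, 0.01 with TMM-style scaling, -0.02 with quantile normalization and 0.23 with protein-coding scaling. Under protein-coding scaling 63.4% of 123 called genes were higher, against 23.2% as reported. Called genes in the replicate block were 1, and 0 of the 27. Deviations of same-numbered libraries from their group means correlated over all tested genes at r = -0.14, -0.17 and 0.02 for numbers 1, 2 and 4. Those of libraries with unlike numbers correlated at -0.10 to 0.21. With 3 libraries a group these values cannot show whether the numbers pair the samples, and the reported fit took them as unpaired.

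Signs were opposite with protein-coding scaling for Itgae (0.11), Itgam (0.17), Itgb5 (0.15), Itgb6 (0.14), Lamb1 (0.20) and Lamb3 (0.13), with TMM-style scaling for Itgam (0.041) and Lamb1 (0.030), and with quantile normalization for Itgax (-0.016). With array weights they were opposite for Itgae (0.073), Itgax (-0.10) and Lamb1 (0.15), and without DSS+DCA replicates 2 and 4 for Itga10 (-0.052), Itga2b (-0.073), Itgam (0.11), Itgb5 (0.48) and Itgb6 (0.0049). Leaving out 1 library at a time turned the sign of 11 genes, given here with the range of their log2 changes. Without DSS+DCA replicate 1 these were Itgae (-0.15 to 0.057), Itgb1 (-0.43 to 0.67), Lama5 (-0.27 to 0.43) and Lamc1 (-0.052 to 0.38), and without DSS+DCA replicate 2 Itgb5 (-0.60 to 0.26) and Lamb1 (-0.18 to 0.085). Without DSS+DCA replicate 4 they were Itga10 (-0.13 to 0.25), Itga2b (-0.0061 to 0.18), Itgam (-0.081 to 0.095) and Itgb6 (-0.40 to 0.018). The sign also turned without DSS replicate 1 for Itgb1 and Lama5, without DSS replicate 2 for Lama3 (-0.051 to 0.27) and without DSS replicate 4 for Itgam. The cause was not tested in any of these. Where DSS+DCA was left with 1 library, its spread was taken from DSS.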
